A study of Mus musculus with 12 samples.

Results

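Of 1202 genes with at least 2 well-counted transcripts in mouse spermatids, 40 shifted from one transcript toward another between the round and the elongated stage. Nanopore direct RNA sequencing assigned each read to a contig, which is 1 annotated reference transcript, and a gene can have many of them. For every contig with a gene symbol and at least 200 counts over the 12 libraries, x was the log2 ratio of its mean level in elongated (ES) over round (RS) wt/wt spermatids, computed on CPM (a contig's share of its library's total counts, scaled to a common total) with a pseudocount of 1 CPM. A gene was kept when its largest and smallest x lay at least 2 apart, and the contigs at both extremes are here called the larger-x and the smaller-x contig. Such contigs were available for 4330 of the 7010 gene symbols in the table, and 1202 of these genes had a pair. The members were thus chosen by the ES against RS contrast of the wt/wt libraries, which also picked their contigs, so every wt/wt value below is a description with no test.

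The 12 libraries formed 4 groups of 3. RS and ES were sorted by DNA content and scatter from testes of adult male mice, which were either Tent5c wt/wt or Tent5c dcat/dcat. The dcat allele encodes a catalytically inactive TENT5C, a non-canonical poly(A) polymerase that lengthens tails, and the methods give a C57BL/6 background for it. Each library held the pooled RNA of 3 mice, so the spread between libraries is not that between single animals, and a read count cannot tell the inactive form of Tent5c from the normal one.

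Transcripts of 1 gene can differ in where transcription starts, in which exons are joined and in where the RNA is cleaved and polyadenylated. The cleavage machinery recognises a short hexamer, most often AATAAA in the DNA sense and less often ATTAAA, a little upstream of the cleavage point. Testis is known for transcripts with short 3′ untranslated regions and for cleavage points without a canonical hexamer. Elongating spermatids stop transcription as the nucleus condenses, so their RNA is a stored population. A nanopore direct RNA read begins at the poly(A) tail and often ends before the transcript's start, which leaves contigs with a common 3′ end harder to tell apart than contigs with different ends.

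Of the 16 members named below, 8 had a larger-x contig that ended at least 50 bases upstream of the smaller-x contig on the genome. The last 30 bases of both contigs are shown for the 6 of these in which both ends lay inside 1 exon and were annotated as complete (GENCODE vM21 on GRCm38), because the choice between these ends separates the pair. Capitals mark AATAAA, each line runs 5′ to 3′ along the transcript, and the ends are those of the annotation, since end positions of reads were not analysed here.
Fgfr1op2 larger-x contig, chr6:146592836-146592865, plus strand: agatcagcaAATAAAtggaatcaatgaaag
Fgfr1op2 smaller-x contig, chr6:146599169-146599198, plus strand: ttgtcAATAAAgatgagtgtttaaaactgg
Spcs2 larger-x contig, chr7:99839681-99839710, minus strand: gaaaAATAAAatagccacttgtaaaagctc
Spcs2 smaller-x contig, chr7:99837569-99837598, minus strand: cccttaAATAAAcactccaactatgctggc
Mllt11 larger-x contig, chr3:95220029-95220058, minus strand: attgaattgtaggtttgtatgtatgtacgt
Mllt11 smaller-x contig, chr3:95219135-95219164, minus strand: catttatggAATAAAgacgttaaatcctaa
Gemin4 larger-x contig, chr11:76217079-76217108, minus strand: tcgcctagtgcataaagcaaaaatactgat
Gemin4 smaller-x contig, chr11:76210571-76210600, minus strand: ttaAATAAAattctcttgggtttaatctta
Arl2bp larger-x contig, chr8:94673260-94673289, plus strand: tcctggaaaacacgactgaccttgctggcc
Arl2bp smaller-x contig, chr8:94674396-94674425, plus strand: agtaaaatttgaggtgtttggcaagaataa
Cfap68 larger-x contig, chr9:50763703-50763732, minus strand: cacaccaaaaaaaaatctctatttgtttac
Cfap68 smaller-x contig, chr9:50762828-50762857, minus strand: ccccagcaccagagggcaacagggagagag
Both ends of Fgfr1op2 and of Spcs2 carried AATAAA, in Mllt11 and Gemin4 it stood in the smaller-x end alone, and the printed ends of Arl2bp and Cfap68 held it in neither contig, although the larger-x contig of Cfap68 has it a little further upstream, within its last 50 bases. The ends were 6333 bases apart in Fgfr1op2, 2112 in Spcs2, 894 in Mllt11, 6508 in Gemin4, 1136 in Arl2bp and 875 in Cfap68. Exon models of 6 members with an upstream end are drawn as well.

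**Figure D1:**
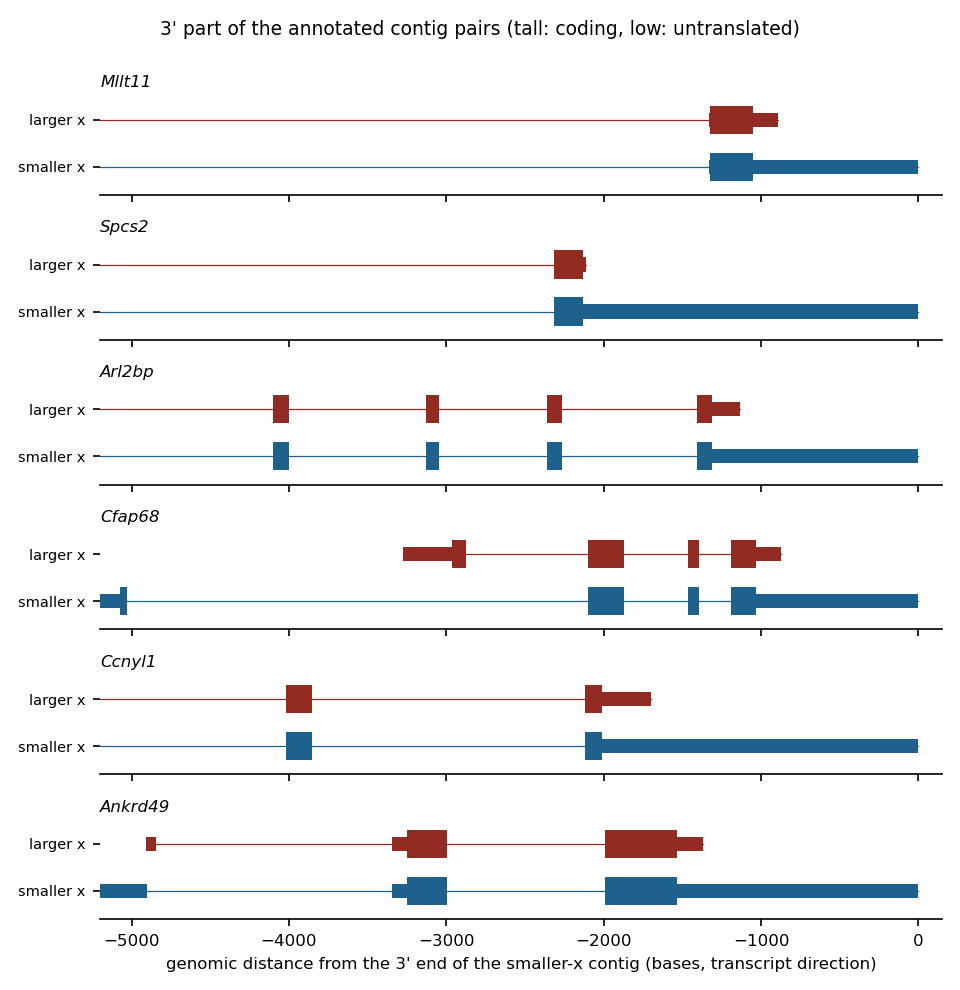
Annotated exons of both contigs of 6 members, Mllt11, Spcs2, Arl2bp, Cfap68, Ccnyl1 and Ankrd49, against the distance in bases from the 3′ end of the smaller-x contig, with tall boxes for coding and low boxes for untranslated exon sequence and lines for introns. In each gene the larger-x contig (red) ends before the smaller-x contig (blue), by 894 bases in Mllt11 and 2112 bases in Spcs2.

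Total counts per library ran from 337287 to 1359427, and 6 of the 960 values of member contigs were 0. The summed level of 10 elongated spermatid markers ran from 27126 to 55104 CPM in RS and from 185412 to 217985 CPM in ES. The 7 round spermatid markers went from 2482 to 2787 CPM in RS to 1048 to 1222 CPM in ES, and 14 of 17 meiotic markers in the table from 1941 to 2250 CPM to 1085 to 1269 CPM. Markers of somatic testis cells were higher in ES libraries. The 6 of 11 Leydig markers in the table summed to 19.0 to 56.6 CPM in RS and 193 to 842 CPM in ES, 7 of 16 Sertoli markers to 25.8 to 87.7 CPM and 222 to 450 CPM, and 2 of 8 macrophage markers to 5.43 to 13.2 CPM and 70.1 to 135 CPM. None of the markers in the table was at 0 in a whole group, and the part of somatic RNA in the contig exchange was not tested. Dkkl1 and Gapdhs, which stood in the round and in the elongated list, are themselves members. In these bulk samples fewer cells of a type and less RNA per cell cannot be told apart.

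Among the 12 libraries, the 4 numbered 1 and ES wt/wt replicate 3 stood apart from the other 7. In 37 of 12114 contigs all 5 lay below all 7 by more than 1 log2, and in 5 contigs all 5 lay above. Of the members' contigs, 3 were below in all 5 libraries, namely the smaller-x contigs of Gstm5, Dkkl1 and Gapdhs, and 1 was above. What these 5 libraries share is not given by the labels. They are 1 of 3 libraries in RS wt/wt but 2 of 3 in ES wt/wt, so they weigh unequally in the values that chose the members, whereas dcat/dcat has 1 in each stage. Without the 5 libraries, the members' wt/wt spread had a median of 2.30 and a lowest value of 1.59, and 27 of 40 pairs were still at 2 or more. Applied to the remaining libraries, the rule would give 48 genes, 28 of them among the 40. Leaving out ES wt/wt replicate 3 alone kept 36 of 40, with Gstm5 at 1.88, Gapdhs at 1.76, Chrne at 1.80 and Tex53 at 1.93. Leaving out ES wt/wt replicate 2 instead gave 63 genes by the rule, 38 of them among the 40.

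The spread of x in the 40 members ran from 2.0 to 3.55 with a median of 2.52, beside a median of 0.48 over all 1202 genes. In 36 members the larger-x contig had x above 0 and the smaller-x contig x below 0. In Spmip6 and Rabac1 both contigs had x above 0, and in Dkkl1 and 1700003E16Rik both had x below 0. These signs depend on the scaling by total counts. After TMM scaling, the smaller-x contigs of more members, among them Arl2bp, Misfa and Atp5mj, had a wt/wt change above 0. The spread hardly depends on it, and the rule on TMM-scaled CPM gave the same 40 members. Just inside the limit were Herc4 at 2.02, Rabac1 at 2.01 and Efcab3 at 2.0, and just outside it Clpb at 1.99, Ankef1 at 1.98 and Tmed10 at 1.98. The members lay on 16 chromosomes, 19 had 2 contigs of at least 200 counts, 15 had 3 and 6 had 4 or more. A member's outer contig held between 202 and 8707 counts over all libraries, with a median of 698. Groups were formed by patterns in gene symbols, which miss members whose symbol does not show their role. The testis pattern, which also takes clone-style symbols, matched 7 members (17.5%), against 8.90% of the 1202 genes. They were Spata17, Tex53, Fam178b, 1700001J03Rik, 1700003E16Rik, 1700113H08Rik and 4930503B20Rik, so most carry no name of a testis gene family. A further 3 members (7.5%) belonged to mitochondria and metabolism, against 3.08%. The symbols of 28 members matched no group, among them Herc4, a ubiquitin ligase, Gemin4, and Cabyr and Cimap3 of the sperm tail and cilia.

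The exchange was next measured in the dcat/dcat libraries, whose ratios the rule did not use, although their counts entered the minimum of 200 over 12 libraries. These libraries are not fully independent of the wt/wt ones: over the pair ratios, same-numbered wt/wt and dcat/dcat libraries correlated in their deviations from the group means, with r of 0.872, 0.628 and 0.708 in RS and 0.774, 0.608 and 0.051 in ES for numbers 1, 2 and 3. With the same formula, the same pairs had a dcat/dcat spread between 1.05 and 3.68 with a median of 2.05, and the larger-x contig was ahead in 40 of 40 members. Among the 1162 other genes the dcat/dcat spread was positive in 864 (74.4%), at least 1 in 197 and at least 2 in 5, and over all 1202 genes its median was 0.38. Of the members, 40 reached 1 and 23 reached 2. With the numbers 2 and 3 alone, all 40 were positive, 38 reached 1 and the median was 1.91; Dusp13b stood at 0.17 and Tex53 at 0.97. With number 1 alone, 38 were positive and the median was 2.79.

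The shift of the ratio of both contigs between RS and ES was then tested in the 6 dcat/dcat libraries with edgeR's quasi-likelihood test and Benjamini-Hochberg adjustment over all 1202 genes. A shift toward the larger-x contig at q of 0.05 or under was found in 20 genes (1.66% of those tested), and 16 of these were members, the other 4 being Ankef1, Sh3glb1, Mbd2 and Syce3. No gene passed in the opposite direction. Before adjustment, 151 genes had a p under 0.05, 34 of them members shifted toward the larger-x contig. Member shifts ran from 0.92 to 3.86 on the log2 scale with a median of 2.10, against a median of 0.39 over all genes. Same-numbered RS and ES libraries of dcat/dcat deviated together, so the replicate number was also entered as a block. The libraries numbered 1 stood apart in both stages, so this does not show that same-numbered libraries share animals. The blocked test gave 323 genes toward the larger-x contig (26.9%) and 10 in the other direction, and 40 of 40 members were called, with shifts from 1.11 to 3.78, a median of 2.14 and a highest q of 0.00919. It also called 283 of the 1162 other genes (24.4%) toward the larger-x contig. Its q values rest mainly on a variance shared over all genes, since few degrees of freedom are left to a single gene.

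Which members passed therefore depended on whether the block was entered and on which libraries were in the fit. Leaving out both libraries of number 1 also raised the number of calls without a block, as given further below. Without the block, leaving out any single dcat/dcat library left 0 genes called by edgeR. In these fits 33 to 36 members had an unadjusted p under 0.05. No count over all genes is given beside it, so it is not read as particular to the members. With the block, leaving out both libraries of number 1, 2 or 3 left 320, 111 or 182 genes toward the larger-x contig and 37, 34 or 37 members. In 33 of 40 members the 3 ES ratios lay above the 3 RS ratios, against 17.1% of all 1202 genes. In 38 of 40 members all 3 same-numbered pairs moved toward the larger-x contig, against 43.5% of all genes. The exceptions were Dkkl1, with log2 differences of -1.11, 0.88 and 1.71 in numbers 1, 2 and 3, and Gapdhs, with -0.32, 0.81 and 1.91.

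**Figure D2:**
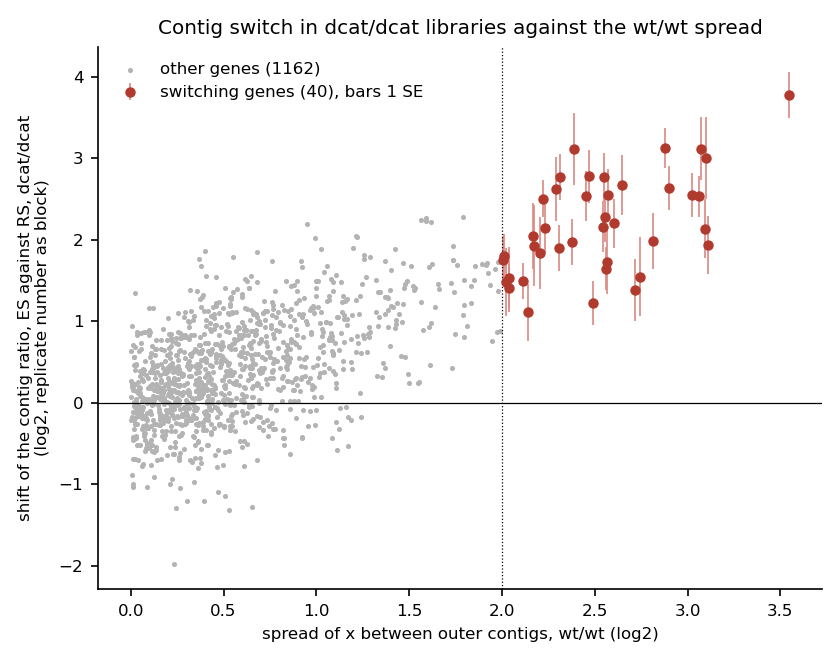
Shift of the contig ratio from RS to ES in dcat/dcat (log2, replicate number as a block; y axis) against the wt/wt spread of x (log2; x axis) for 1202 genes, with bars of 1 SE for the 40 members in red. Every member lies above 0, from 1.11 to 3.78, and the other genes centre lower.

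Cabyr, which encodes a calcium-binding protein of the fibrous sheath of the sperm tail, had the largest wt/wt spread of the 40. Of the reads of its pair, 20.7%, 18.4% and 27.3% fell on the larger-x contig in the wt/wt RS libraries and 76.8%, 80.8% and 74.2% in the wt/wt ES libraries. The dcat/dcat libraries had 20.2%, 26.7% and 33.3% at the round stage and 73.9%, 92.6% and 83.0% at the elongated stage. The stages did not overlap in either genotype, and the dcat/dcat shift was 3.86 ± 0.59 (log2, SE, edgeR q = 0.0397), or 3.78 ± 0.28 with the block (q = 1.07e-29). Both Cabyr contigs are coding and end 6 bases apart, with coding lengths of 1359 and 1143 bases. In Cfap68, a gene of cilia and flagella, the dcat/dcat shares were 10.7%, 16.5% and 21.1% in RS and 58.0%, 64.3% and 64.4% in ES, after 8.14%, 20.8%, 20.7% and 62.0%, 58.1%, 59.0% for the same stages of wt/wt. The contig with the upstream end thus led the pair in every ES library and in no RS library. Its shift was 3.14 ± 0.40 (edgeR q = 0.0319). Cimap3, a gene of ciliary microtubules, had dcat/dcat shares of 29%, 45.5% and 44.4% in RS and of 79.0%, 86.5% and 78.9% in ES, and wt/wt shares of 30.1%, 33.1% and 46.7%, then 68.4%, 85.1% and 79.1%. Its groups did not overlap either, and its 2 contigs end 9 bases apart but start 13149 bases apart. The shift was 2.76 ± 0.44 (edgeR q = 0.0398).

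Arl2bp encodes a partner of the small GTPase ARL2 that is found at cilia. In dcat/dcat its larger-x contig held 30.3%, 37.8% and 41.2% of the pair in RS and 67.4%, 63.4% and 54.4% in ES. The wt/wt libraries had 20.8%, 33.3% and 40.2%, then 68.4%, 67.1% and 65%. The dcat/dcat stages were 13.1 points apart at their nearest libraries, and the shift was 1.5 ± 0.36 without (edgeR q = 0.124) and 1.49 ± 0.22 with the block (q = 5.07e-09). Misfa, named for the mitochondrial sheath of sperm, already had the larger-x contig ahead in RS, with 58.7%, 59.9% and 67.5% in dcat/dcat. In ES the share was 90.9%, 90.9% and 89.4%. For wt/wt it was 58.9%, 61.8% and 68.4%, then 90.6%, 89.5% and 87.5%. All ES libraries lay above all RS libraries, and the shift was 2.52 ± 0.31 (edgeR q = 0.0319). Its 2 contigs end 1 base apart, are 335 and 486 bases long and had 8707 and 1992 counts, which made it the most counted pair.

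Of the members that serve energy metabolism, Atp5mj and Atp5f1b encode subunits of ATP synthase. Their larger-x contigs end 141 and 118 bases upstream of the smaller-x contigs, although that of Atp5mj is marked as incomplete at the 3′ end. The larger-x contig of Atp5mj held 11.4%, 20.8% and 18.6% of the pair in RS dcat/dcat and 47.8%, 43.4% and 39.3% in ES dcat/dcat. It held 18%, 15.3% and 19.2%, then 54.1%, 46.6% and 55.0% of the pair for the wt/wt stages. The stages did not overlap in either genotype, with a shift of 1.93 ± 0.39 (edgeR q = 0.0688; 1.89 ± 0.28 and q = 6.07e-09 with the block). Atp5f1b kept its coding contig as the main one in all 12 libraries. Its non-coding larger-x contig of 478 bases rose from 4.92% ± 1.99 (SD, n = 3) of the pair in RS dcat/dcat to 17.2% ± 4.22 in ES dcat/dcat, a shift called with the block (edgeR q = 3.55e-07) but not without it (q = 0.113). Higd1a, a mitochondrial protein induced by low oxygen, had 91.4%, 65.5% and 67.6% in RS dcat/dcat and 96.6%, 92.1% and 86.9% in ES dcat/dcat. Its wt/wt shares were 87.4%, 58.2% and 61.2%, then 98.7%, 89.9% and 96.1%. The RS dcat/dcat library numbered 1 lay inside the range of ES, and the shift of 1.87 ± 0.82 did not pass without the block (edgeR q = 0.417; 1.93 ± 0.36 and q = 2.7e-06 with it).

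Gapdhs, the glycolytic enzyme of the sperm tail, Gstm5, a glutathione transferase, and Dkkl1, a protein of the acrosome, are the 3 members whose smaller-x contig was low in the 5 libraries that stood apart. Counts of the smaller-x contig of Gstm5 were 1, 278 and 575 in wt/wt RS, 2, 178 and 1 in wt/wt ES, 4, 199 and 377 in dcat/dcat RS, and 0, 148 and 189 in dcat/dcat ES. The near-absent values were those of number 1 in every group and of number 3 in ES wt/wt. With the numbers 2 and 3 of dcat/dcat, the spread of Gstm5 was 1.56, and the larger-x share was 38.8% and 42.7% in RS and 65.6% and 69.0% in ES. The smaller-x contig of Gapdhs had 11, 104 and 303, then 18, 200 and 4, then 4, 62 and 207, then 19, 160 and 225 counts in the same order. That of Dkkl1 had 0, 97 and 181, then 0, 14 and 0, then 0, 44 and 114, then 0, 11 and 15 counts. In both genes the same 5 libraries were lowest. Without the 5 libraries the wt/wt spread was 1.68 in Gstm5, 1.63 in Gapdhs and 1.88 in Dkkl1, each under the limit. The shares of these genes overlapped between stages in both genotypes. The dcat/dcat shift of Gstm5 had an edgeR q of 0.794 without and 8.21e-08 with the block, that of Gapdhs 0.706 and 0.000104, and that of Dkkl1 0.895 and 0.00213. The annotation classes the larger-x contig of Gapdhs and both contigs of Gstm5 as targets of nonsense-mediated decay, and the pair held 34.1% of the counts of Gapdhs and 15.9% of those of Gstm5.

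**Figure D3:**
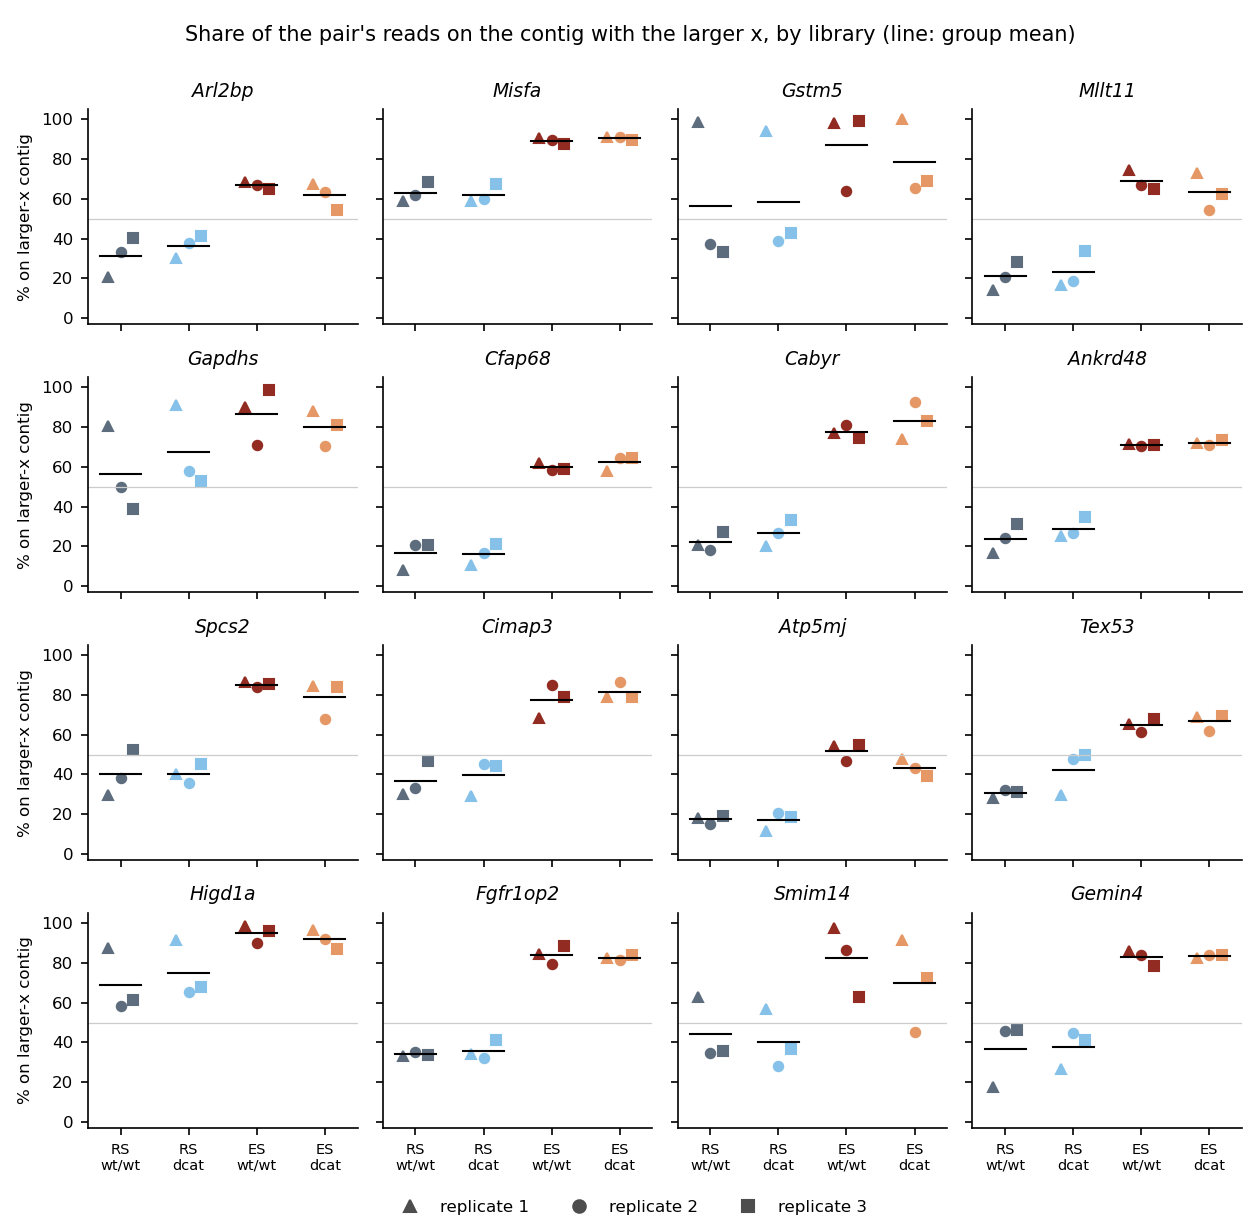
Share of the pair's reads on the larger-x contig (percent, y axis) in each of the 12 libraries for the 16 named members, by stage and genotype, with a marker shape for each replicate number and a line at the group mean. In Cabyr, Fgfr1op2 and Ankrd48 all ES libraries lie above all RS libraries, and in Gstm5 and Gapdhs the libraries numbered 1 lie far above the others of RS.

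In 4 members of protein export, RNA assembly and signalling, the larger-x contig was the one with the upstream 3′ end. Spcs2, a subunit of the signal peptidase complex, had the upstream-ended contig in 40.2%, 35.8% and 45.1% of the pair's reads in RS dcat/dcat and in 84.5%, 68.0% and 83.7% in ES dcat/dcat. Its wt/wt libraries had 29.7%, 38.3% and 52.5%, then 86.3%, 83.8% and 85.4%, with no overlap between stages. Its shift was 2.53 ± 0.46 (edgeR q = 0.0529), or 2.55 ± 0.27 with the block (q = 9.15e-17). In Mllt11, a small protein known as a partner of MLL fusions in leukaemia, the shares were 16.8%, 18.8% and 33.7% in RS and 72.9%, 54.2% and 62.5% in ES of dcat/dcat and 14.4%, 20.7%, 28.1% and 74.7%, 66.7%, 64.9% for wt/wt. The stages did not overlap. The coding sequence of both Mllt11 contigs is the same, and the 3′ end printed above and the start differ; the shift was 2.59 ± 0.51 (edgeR q = 0.0657) and passed with the block (2.54 ± 0.25, q = 1.74e-18). Gemin4, a part of the SMN complex that assembles splicing particles, went from 26.8%, 44.7% and 41.4% in RS to 82.3%, 83.9% and 83.8% in ES dcat/dcat. In wt/wt the change was from 17.6%, 45.8% and 46.2% to 85.9%, 84.0% and 78.4%. The stages were well apart, and the shift was 3.06 ± 0.41 (edgeR q = 0.0321). Its larger-x contig is a non-coding transcript of 234 bases and shares 40 of them with the coding one. Of the coding contig, 94.7% of the exonic bases also lie in Glod4 on the same strand, so reads of both genes could be exchanged there. Fgfr1op2, named as a fusion partner of FGFR1, had 34.4%, 32.3% and 41.2% in RS and 82.4%, 81.2% and 84.1% in ES dcat/dcat, and 33.3%, 35.3%, 33.9% and 84.2%, 79.5%, 88.2% for the wt/wt stages. The stages did not overlap, and the shift was 3.06 ± 0.38 (edgeR q = 0.0319). Its pair held 13.3% of the gene's counts, with 3 to 10 counts of the smaller-x contig in each ES dcat/dcat library.

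The remaining named members are less well known. Smim14, a small membrane protein, had shares of 56.6%, 28.0% and 36.7% in RS and 91.3%, 45.2% and 72.4% in ES dcat/dcat, and of 62.8%, 34.8%, 35.6% and 97.5%, 86.4%, 62.9% for wt/wt. The dcat/dcat ranges overlapped, each pair of the same number went up, and the shift of 2.11 ± 0.91 was called only with the block (edgeR q = 0.408 without it; 2.14 ± 0.36 and q = 2.73e-07 with it). Ankrd48 had shares of 25.2%, 26.8% and 34.9% in RS and 71.8%, 70.7% and 73.2% in ES dcat/dcat, after 16.8%, 24.0%, 31.0% and 71.5%, 70.3%, 71.1% for wt/wt. No RS library reached an ES library, and the shift was 2.65 ± 0.34 (edgeR q = 0.0319). Its larger-x contig lies on chromosome 11 from 5628738 to 5645153 and its smaller-x contig from 5569697 to 5584283 (GRCm38), so the 2 share no exonic base. The larger-x model is marked as incomplete at its 5′ end, and whether both are parts of 1 longer transcript was not tested. Tex53 had 29.9%, 47.9% and 49.6% in RS and 68.9%, 61.9% and 69.1% in ES dcat/dcat, after 28.3%, 32.1%, 31.2% and 65.5%, 61.4%, 68.0% for wt/wt. Its stages did not overlap, and the shift of 1.43 ± 0.42 passed with the block (edgeR q = 0.196 without it; 1.40 ± 0.29 and q = 3.88e-05 with it). Over all 40 members, the median of the mean larger-x shares went from 32.2% in RS to 73.2% in ES for wt/wt and from 35.4% to 68.4% for dcat/dcat. The share rose by 4.10 to 56.4 percentage points from RS to ES in dcat/dcat, with a median of 28.6.

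The exchange replaced the main contig of the pair in a part of the members. The smaller-x contig led in all 3 RS and the larger-x contig in all 3 ES libraries of wt/wt in 18 members and of dcat/dcat in 16, and in dcat/dcat 37 of 1202 genes (3.08%) did so. In 14 members this held in all 12 libraries: Cabyr, Fgfr1op2, Gemin4, Mllt11, Ankrd48, Cfap68, Cimap3, 4930503B20Rik, Lrriq3, Spata17, Chrne, Arl2bp, Tex53 and Rabac1. The wt/wt libraries among the 12 chose the pairs, and no count over all genes is given beside the 14. That count is therefore a description and is not read as particular to the members. Summed over all its contigs, the CPM of a member as a whole gene went in either direction, with log2 differences of ES over RS from -1.39 to 1.90 (median 0.07) for wt/wt and from -1.56 to 1.73 (median -0.05) for dcat/dcat. The sum was higher in ES in 21 and 18 members and within 1 log2 in 28 and 30. Over all genes with a pair the medians were -0.61 and -0.58. The pair held a median of 89.8% of the gene's counts, at least 80% in 23 members and under 50% in 9.

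Each contig was also tested alone, in a fit of all 12 libraries with 11831 contigs. After TMM scaling, 24% of all contigs were higher and 17% lower in ES than RS of dcat/dcat at a q of 0.05 or under. Of the 40 larger-x contigs, 35 were higher and 0 lower, and of the 40 smaller-x contigs, 13 were lower and 6 higher; on total counts alone these were 26 and 1, and 27 and 0. In 11 members both contigs were called in opposite directions, but no count over all genes with a pair is given beside it, so it is not read as particular to the members. Under TMM the median change was 2.09 in the larger-x and -0.51 in the smaller-x contigs, against -0.18 over all contigs. On total counts all contigs moved down, to a median of -0.85, with 1964 higher and 4995 lower (28.2% higher among the calls, against 58.6% under TMM), and the medians were 1.42 and -1.18. On both scales the median of the larger-x contigs lay above, and that of the smaller-x contigs below, the median of all contigs. The 13 lower smaller-x contigs were 8 without ES dcat/dcat replicate 2 and 7 without ES dcat/dcat replicate 3. The largest rise was that of the larger-x contig of Gapdhs (3.05 ± 0.62, edgeR q = 0.00121), and the largest called fall that of the smaller-x contig of Fam178b (-1.62 ± 0.37, edgeR q = 0.00264).

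**Figure D4:**
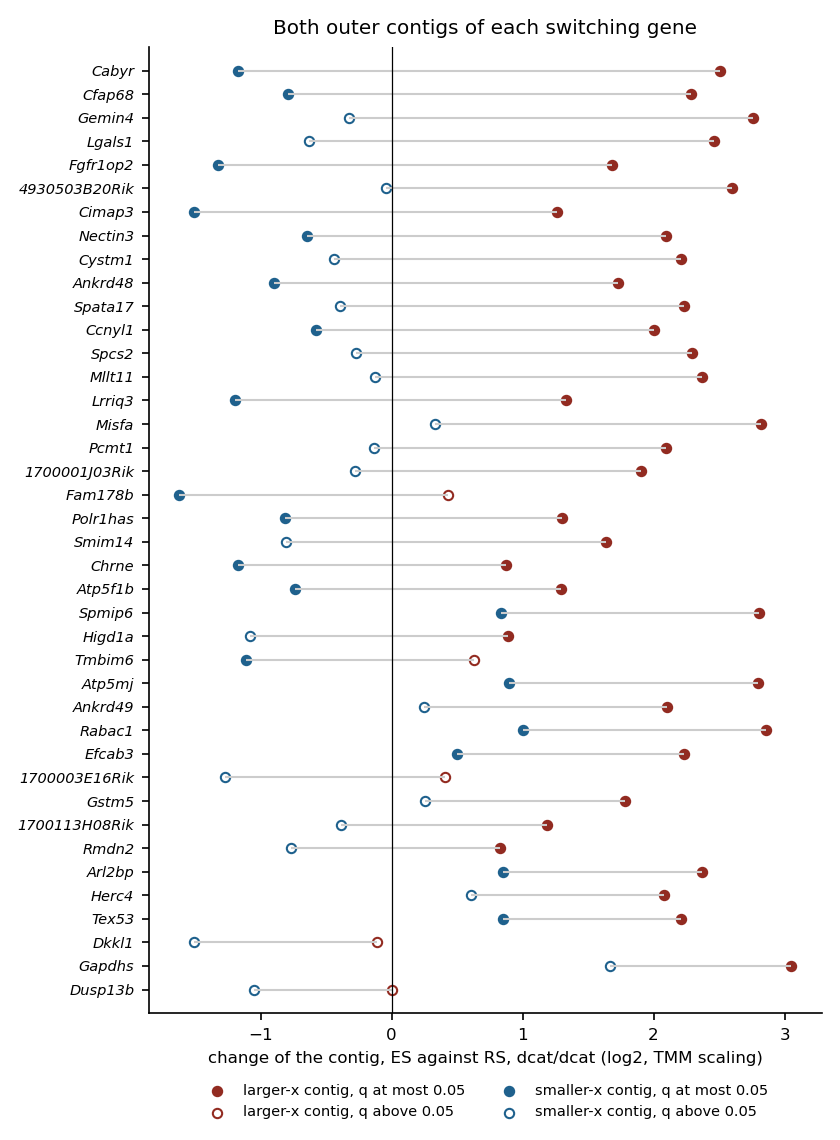
Change of the larger-x (red) and smaller-x (blue) contig of each of the 40 members from RS to ES in dcat/dcat (log2, TMM scaling; x axis), sorted by the shift of the ratio, with filled circles for q of 0.05 or under. The larger-x circles are filled and right of 0 in 35 members, and the smaller-x circles fall on both sides of 0.

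All 40 pairs could be placed on GRCm38 through the annotation, and so could 1188 of the 1202 pairs in all. The larger-x contig ended at least 50 bases upstream of the smaller-x contig in 16 members (40%, against 24.7% of the 1188), within 50 bases in 14 (35%, against 57.1%), and downstream in 10 (25%, against 18.3%). The share with an upstream end went with the wt/wt spread: it was 21.2% of genes with a spread under 0.5, 24.9% from 0.5 to 1, 31.6% from 1 to 1.5, 34.7% from 1.5 to 2 and 40% in the members. These shares are a description, and no test was made of them. In the 16 members the ends lay 118 to 56532 bases apart, with a median of 2710.5. In 2 of the 16 (12.5%, against 4.10% of all placed genes of this class), Smim14 and Atp5mj, the larger-x contig is marked as incomplete at the 3′ end. There the upstream end is only where the model stops. Starts differed as well: the larger-x contig began at least 50 bases downstream in 21 members (52.5%, against 39.6%) and upstream in 13 (32.5%, against 27.5%).

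Larger-x contigs were often short. Their median length was 894.5 bases and that of the smaller-x contigs 1180.5, against 1863 and 1995 in all placed genes. They were the shorter one in 26 members (65%, against 57.7%) and at most 50% as long in 14 (35%, against 11.4%). The share of the pooled pair reads that fell on the shorter contig was 39.8% to 47.1% in RS libraries and 60.9% to 65.3% in ES libraries for the members, and 36.7% to 37.8% and 31.7% to 34.8% for all pairs. Pooled reads weigh the most counted pairs, such as Misfa, most. The rule picked pairs whose larger-x contig gains in wt/wt, and that contig is the shorter one in 26 members. The rise in the members is thus partly set by their choice, and the contrast with all pairs is a description. The median share over member pairs went from 40.7% to 47.8% in RS to 50.5% to 56.2% in ES, and that over all pairs from 40% to 44.2% in RS to 42.3% to 46.0% in ES, ranges that overlap. The mean contig length of all reads was also shorter in ES (1614 to 1754 bases) than in RS (1999 to 2131 bases), and its part in the exchange was not tested. Both contigs were coding in 25 members (62.5%, against 69.4%). Of these, 4 had the same start and end of the coding sequence (Higd1a, Mllt11, Ankrd49 and Tmbim6), 8 only the same start, 8 only the same end and 5 neither, whereas 476 of the 825 such pairs in all genes had both the same. In 8 members (20%, against 19.2%) the larger-x contig was not classed as protein coding and the smaller-x contig was. Ankrd48, 4930503B20Rik and Rmdn2 had no exonic base in common between their contigs (7.5%, against 0.673%), and the larger-x models of Ankrd48 and Rmdn2 are marked as incomplete at the 5′ end.

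**Figure D5:**
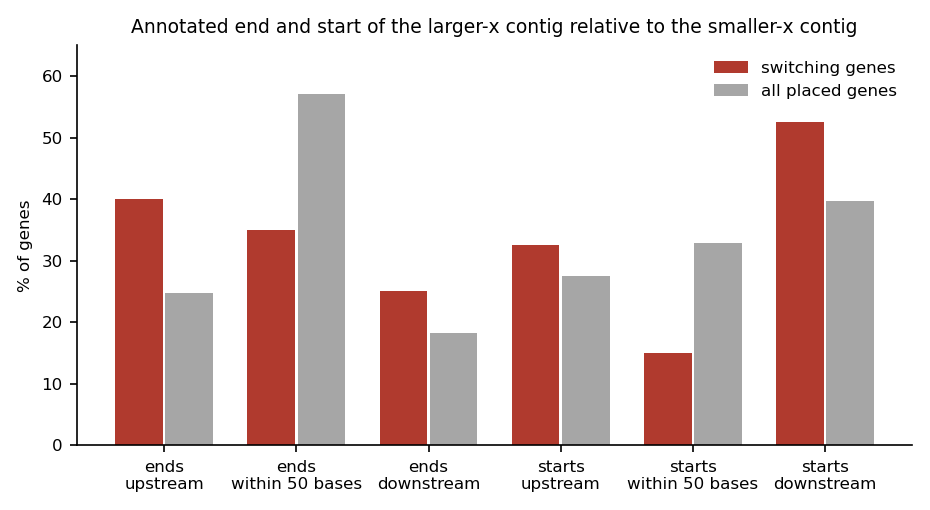
Percent of the 40 members (red) and of the 1188 placed genes (grey) whose larger-x contig ends, or starts, upstream of, within 50 bases of, or downstream of the smaller-x contig. The bars for an upstream end stand at 40% and 24.7%, and those for ends within 50 bases at 35% and 57.1%.

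The last 50 bases of each contig were searched on the transcript strand for AATAAA and ATTAAA, and a contig with both was counted under AATAAA. The larger-x contig held AATAAA in 20 members (50%, against 58.6% of larger-x contigs in all placed genes), ATTAAA alone in 4 and neither in 16 (40%, against 26.4%). The smaller-x contigs of the members had nearly the same counts, with AATAAA in 20 (50%, against 60.4%) and neither in 15 (37.5%, against 25.7%). Of the 16 members with an upstream end, AATAAA was found in 7 larger-x (43.75%) and 11 smaller-x contigs (68.75%), against 41.6% and 52.9% of all placed genes of this class. Neither motif was found in 9 larger-x (56.25%) and 4 smaller-x contigs (25%), against 42.3% and 33.8%. In the 10 members with a downstream end it was the other way, with AATAAA in 6 larger-x (60%) and 2 smaller-x contigs (20%), against 49.3% and 44.2% of all placed genes of that class. Neither motif was found in 3 (30%) and 7 (70%), against 38.7% and 44.7%. In both classes all placed genes had the same order of larger-x and smaller-x contigs, so that order is not particular to the members. A missing hexamer says only that these letters are not in this window of the annotated contig. The larger-x contigs of Smim14 and Atp5mj and the smaller-x contig of Dkkl1 are marked as incomplete at the 3′ end. At the 5′ end, the larger-x contigs of Ankrd48, Pcmt1, Gapdhs and Rmdn2 are marked as incomplete (10%, against 3.45% of larger-x contigs in all placed genes), and no smaller-x contig of a member is. In 1 larger-x contig (Herc4, 19 of 20) and 1 smaller-x contig (Cfap68, 17 of 20) the genomic bases after the end were mostly A.

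The factors that choose 3′ ends were read from the same contig fit. Of 22 cleavage and polyadenylation genes, 17 had a tested contig. Of their 28 contigs, 4 were higher in ES dcat/dcat, 5 were lower and 19 did not pass, where 24% of all contigs were higher and 17% lower, so the list was called no more often than contigs at large in the higher direction and about as often in the lower. Its median was -0.09 against -0.18 over all contigs. The 4 higher contigs belonged to Pabpn1, a nuclear poly(A)-binding protein (1.52 ± 0.21 and 2.98 ± 0.72), and Sympk, the scaffold symplekin (1.43 ± 0.27 and 2.93 ± 1.03). The lower ones were of Nudt21, which binds UGUA upstream of distal sites (-1.24 ± 0.21), Cstf1 (-1.41 ± 0.21), Clp1 (-1.44 ± 0.49), Fip1l1 (-2.11 ± 0.80) and Wdr33, which contacts the hexamer (-1.0 ± 0.29). Of 8 tested genes of nonsense-mediated decay with 11 contigs, 1 contig each of Upf3a (0.74 ± 0.27) and Smg5 (-0.80 ± 0.25) was called, the former higher and the latter lower, beside the same background. The 11 calls of both lists became 7 without RS dcat/dcat replicate 2 or without ES dcat/dcat replicate 2, 6 without ES dcat/dcat replicate 3, and 17 on total counts.

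The last comparison asked whether loss of TENT5C catalysis moved the ratio within a stage. In a fit of all 12 libraries, edgeR called 0 of 1202 genes (0%) for dcat/dcat against wt/wt in ES, 0 (0%) in RS and 0 (0%) for the stage by genotype interaction. Before adjustment, 18, 11 and 10 genes had a p under 0.05, with 0 members in each, and DESeq2 and limma also called 0 (10 and 26 genes unadjusted in ES, 5 and 13 in RS). The dcat/dcat minus wt/wt difference of the log2 ratio in members had a median of -0.22 in ES, from -1.55 in Gstm5 to 0.60 in Cabyr, and of 0.14 in RS, from -0.38 to 0.79. The wt/wt ratios set the choice of pairs, which favours a smaller shift in dcat/dcat, and the interaction was negative in 32 of 40 members. At this depth and with 3 libraries a group, no difference between genotypes was detectable.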

How the data were processed

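Poly(A) RNA of sorted spermatids was read by nanopore direct RNA sequencing in 12 libraries, 3 for each stage and genotype, with RNA of 3 mice pooled in each. Per the study's methods, the authors called bases with Guppy, aligned reads with minimap2 to GENCODE transcripts on GRCm38 and kept reads with a passed Nanopolish tail call. The submitters' processing notes name minimap2 2.20-r1061, while the methods name another release. The deposited counts are whole-number counts of reads per contig without normalization for 12114 contigs, and 0 lines lacked a contig name. Only the counts and the symbols were used. The authors' columns of fold changes and p-values hold their own comparisons and were not used. Counts cannot show how reads that match several transcripts were assigned, nor which reads the poly(A) purification and the tail filter lost.

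Symbols came from the deposited tables (1 contig with 2 symbols kept the first). In R 4.3.3, edgeR 4.0.16 (glmQLFit, glmQLFTest) tested the ratio of both contigs, with 1 term per library, which cancels depth, and 1 ratio per group. Single contigs with at least 10 counts in at least 2 libraries of a group were fitted in edgeR with TMM scaling. DESeq2 1.42.0 and limma 3.58.1 served as alternatives. Calls needed a Benjamini-Hochberg q of 0.05 or under. The unblocked test of the ratio and the contig fit were tried on simulated data without deviations shared by replicate number. The blocked test was not tried in this way.

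Same-numbered RS and ES libraries of dcat/dcat correlated in their deviations from the group means over pair ratios (r of 0.786, 0.528 and 0.615), so the labels' numbers were taken to pair them, and the blocked result is given beside the unblocked one. In wt/wt the same comparison of stages gave r of 0.693, 0.682 and -0.130. Deviations from a group mean cancel within the group, so the r values of a comparison are not independent. With number 1 standing apart in both stages, they cannot show that same-numbered libraries share animals. The methods state that the germ cell types were isolated from the same mice but not which libraries share them, so RS and ES libraries of a genotype may share animals. P-values measure the spread between these pooled libraries, with a variance that edgeR partly shares over all genes. In the blocked fit few degrees of freedom are left to a gene, so its q values rest mainly on that shared variance. Cabyr had an edgeR p of 0.000332 without and 8.91e-33 with the block, at an SE of 0.59 and 0.28. Named members are the 12 with x on both sides of 0 and the most counts in the less counted contig and the 8 with the largest spread (16 in all); other members are named where a count or an extreme calls for it, chosen after their values were seen. The members, lists and alternatives were chosen with earlier results of these data known. Contig ends came from GENCODE vM21, a later release on the same build, and sequences from the reference of that build.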

Additional observations from a re-analysis of the deposited data

How the results depend on the processing

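Counts of genes by the rule were 87 with at least 100 counts per contig, 22 with at least 400, 89 with a spread of at least 1.5 and 7 with at least 3; without 1 wt/wt library each they ran from 40 to 63. In dcat/dcat, the unblocked edgeR test called 20 genes and 16 members. These became 39 and 26 with DESeq2, 49 and 28 with diffSpliceDGE, 46 and 27 with all 12 libraries in the fit, 12 and 9 with a minimum of 400 counts, 16 and 7 with a minimum of 50, and 333 and 40 with the replicate block. Without 1 dcat/dcat library each they were 0 to 0 and 0 to 0. Alternatives added after seeing the data gave 328 genes and 37 members without the libraries numbered 1 and no block, and 336, 112 and 186 genes and 37, 34 and 37 members with the block and without both libraries of number 1, 2 or 3. The cause of these differences was not tested; a fit with fewer libraries also has fewer degrees of freedom. For contigs, total counts gave 27 lower smaller-x contigs (13 under TMM), and without 1 library each they ran from 7 to 12. Calls over all contigs were 2562 with at least 10 counts in every library, which tests fewer contigs, against 4848. The factor calls were 17 on total counts and 7 with that filter, and 6 to 9 without 1 library each. The genotype comparisons stayed at 0 under all alternatives run, the replicate block included, and the block moved no count of contig calls by more than 1.5 times. Low counts limit single shares, as in Fgfr1op2. How reads of overlapping contigs were assigned was not analysed here, and replicates are pools of 3 mice.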

Other observations

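In Gstm5, Gapdhs and Dkkl1, whose smaller-x contigs were near absent in the libraries numbered 1 and in ES wt/wt replicate 3, that contig ended 111, 112 and 100 bases upstream of the larger-x contig, and its last 50 bases held neither AATAAA nor ATTAAA, while those of the larger-x contig held AATAAA. In Dkkl1 the smaller-x model is marked as incomplete at the 3′ end.

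Outside the 40 members, 5 genes reached a dcat/dcat spread of 2 by the same formula. They were Mbd2, a reader of methylated DNA (2.22, with 1.79 in wt/wt), Syce3, a protein of the synaptonemal complex (2.11, with 1.62), Tulp2 (2.22, with 1.59), Ybx2, a germ cell protein that binds stored mRNA (2.14, with 1.57), and Vdac2, a channel of the outer mitochondrial membrane (2.04, with 1.21). They were picked by this value after it was seen, so it is a description with no test.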
